A study of Mus musculus with 4 samples.

Results

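Ccl6, Ccl9 and Ccl24 are 3 genes for secreted CC chemokines, and they were examined by day and across myeloid markers in single cells of the inflamed mouse joint. They were chosen by name, with earlier results of these data known. They are 3 of 13036 genes listed in at least 1 library, of which 11195 were listed in all 4. All 3 were listed in every library at over 100 CPM (a gene's UMIs per 1000000 UMIs of the barcodes summed), so none was lost to a filter on low values. The cells were CD45+CD11b+Ly6G- cells, which are myeloid cells without neutrophils, sorted from the hind paws of Cx3cr1creER:tdTomato mice. In these mice tamoxifen switches on a red reporter in cells that use the Cx3cr1 promoter at that time. Mice of every group had received tamoxifen at 4 mg/ml, 2 times within 48 h. K/BxN serum, which transfers autoantibodies that cause arthritis, was given 4 weeks after it. The groups were steady state (day 0) and 1, 2 and 5 days after the serum, with 1 library of the 10x Genomics 3' v2 chemistry per day. How many mice a library pools is not in the labels. Each day is 1 library, so the effect of the day and that of the library cannot be told apart. No difference between days could be tested, and each interval below is a 95% interval for counting error alone.

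CC chemokines are small secreted proteins that guide leukocytes by binding G protein-coupled receptors. Ccl6 and Ccl9 are rodent chemokines with no direct human counterpart, made by macrophages and other myeloid cells, and both signal through Ccr1, a receptor of monocytes, neutrophils and osteoclast precursors. Ccl24, also called eotaxin-2, attracts eosinophils through Ccr3, and macrophages are known to raise it in response to interleukin-4 and interleukin-13.

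The coding sequence around the adjacent cysteines that give CC chemokines their name shows how closely the genes are related. The segments below are 54 coding bases each, read 5' to 3' from GENCODE transcripts on GRCm38, the assembly that mm10 names, and the capitals mark the adjacent cysteine codons. They start at coding base 124 of Ccl6, 145 of Ccl9 and 73 of Ccl24.
Ccl6: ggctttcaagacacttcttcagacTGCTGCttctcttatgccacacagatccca
Ccl9: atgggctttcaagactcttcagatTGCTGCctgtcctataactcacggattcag
Ccl24: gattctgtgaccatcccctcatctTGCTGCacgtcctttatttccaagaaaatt
Over the whole coding sequence Ccl6 and Ccl9 were 64.8% identical, against 45.3% for Ccl6 with Ccl24 and 46.2% for Ccl9 with Ccl24. Over that whole sequence, Ccl6 and Ccl9 hold 6 cysteine codons each and Ccl24 holds 7. Ccl24 has 2 adjacent pairs of cysteine codons, and the earlier pair lies before the segment shown. The count is of codons and not of cysteines in the secreted protein. In the last 500 transcript bases, where 3' reads start, the longest run shared by Ccl6 and Ccl9 was 9 bases.

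Ccl6 and Ccl9 are also neighbours in the genome. Ccl6 lies at chr11:83587882-83593087 and Ccl9 at chr11:83572919-83578636, both on the minus strand of GRCm38, with 9245 bases and no annotated gene between them. Ccl24 lies on another chromosome, at chr5:135569937-135573049 on the minus strand. An antisense gene, E230016K23Rik, overlaps Ccl6 and was not listed in any library. Since Ccl6 and Ccl9 also varied together across barcodes after serum, the 250 bases before each start are shown, from the RefSeq promoter table on GRCm38.p6, minus strand, with motif matches in capitals. The Ccl6 window is chr11:83593088-83593337 and the Ccl9 window is chr11:83578637-83578886.
Ccl6: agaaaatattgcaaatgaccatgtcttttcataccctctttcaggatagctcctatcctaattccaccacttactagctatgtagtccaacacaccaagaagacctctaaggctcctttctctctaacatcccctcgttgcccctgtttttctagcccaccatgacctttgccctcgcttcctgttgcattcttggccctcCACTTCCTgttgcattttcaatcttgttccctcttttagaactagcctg
Ccl9: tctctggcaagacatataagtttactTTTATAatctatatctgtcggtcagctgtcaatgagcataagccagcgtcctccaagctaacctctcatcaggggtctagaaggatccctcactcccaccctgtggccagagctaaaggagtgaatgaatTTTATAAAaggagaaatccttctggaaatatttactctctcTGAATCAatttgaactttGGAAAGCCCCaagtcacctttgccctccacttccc
The Ccl6 window held a PU.1 or ETS core (AGGAAGTG, on the reverse strand), which 3.14% of 32851 promoter windows of the same length hold on either strand. The Ccl9 window held an AP-1 site (TGANTCA, 6.75% of windows), 3 matches to a TATA box (TATAAA, 12.4%), of which a forward and a reverse one overlap, and a match to an NF-kB motif (on the reverse strand, 1.41%). A STAT6 motif (5.85%) was in neither window. The best local alignment of the windows covered 181 columns with 94 identities (51.9%). The motif matches describe letters and not binding.

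Keeping barcodes with 500 genes or more and less than 10% of UMIs from mitochondrial genes left 3715, 4642, 2722 and 3235 at days 0, 1, 2 and 5. The day 0 library stood apart: the gene minimum removed 49.9% of its barcodes and at most 2 barcodes of any other, and its retained barcodes had a median of 1057 UMIs against 3607.5 to 4183.5. Libraries shared 10 to 22 barcode sequences per pair, at most 0.680% of either. The genes checked for the gate (Ptprc, Itgam, Csf1r, Lyz2, Adgre1) were listed in every library and Ly6g in none. Lists for other cells summed to 7.89 to 38.4 CPM per library for neutrophils, 0 to 2.82 for mast cells or basophils, 2.45 to 17.3 for lymphocytes, 45.5 to 124 for fibroblasts, 0.920 to 5.18 for endothelium and 0 to 161 for erythroid cells, where 0 means that no gene of the list was listed (day 2 for mast cells or basophils, day 0 for erythroid cells). Because depth differed, shares of barcodes with a UMI are given after each barcode was thinned to 500 UMIs, with the unthinned share beside them.

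Ccl24 showed the largest difference between days of the 3 genes. Its level was 329 CPM (interval 312–346) in the day 0 library, 386 CPM (377–396) on day 1, 267 CPM (258–276) on day 2 and 119 CPM (113–124) on day 5. Day 5 was the lowest and its interval overlapped none of the others. The day 5 level was 2.77-fold (2.58 to 2.97) lower than day 0 and 3.25-fold (3.09 to 3.43) lower than day 1. Of 7419 genes measured at days 5 and 0, 3.34% were at least 2-fold lower, and 1.25% were so between days 5 and 1. The thinned share of barcodes with a Ccl24 UMI was 14.4%, 16.8%, 13.3% and 6.37% at days 0, 1, 2 and 5 (28.9%, 47.7%, 42.0% and 22.6% unthinned). The smaller differences at days 1 and 2 depended on scaling: day 2 was 0.812 of day 0 from summed counts and 1.06 as the mean of each barcode's CPM.

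Ccl9 was lowest in the day 0 library, at 848 CPM (821 to 876), against 1304 (1287–1321) on day 1, 1116 (1097–1134) on day 2 and 1207 (1189–1225) on day 5. The ratios to day 0 were 1.54 (1.48 to 1.59), 1.32 (1.27 to 1.36) and 1.42 (1.37 to 1.47), and none reached 2-fold. Thinned shares were 33.4%, 45.2%, 39.5% and 38.1% (59.0%, 87.9%, 85.3% and 85.9% unthinned), in the same order as the CPM except that days 2 and 5 changed places.

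Ccl6 was at 845 CPM (818–873) in the day 0 library, 938 (924–952) on day 1, 660.2 (646–675) on day 2 and 688 (674–701) on day 5. The order was day 1, day 0, day 5 and day 2, and the last 2 had intervals that touched. Over the day 0 level, days 1, 2 and 5 came to 1.11, 0.781 and 0.814, and the first turned to 0.986 with median-ratio scaling, which moved the log2 ratio of every gene to day 0 by -0.17, -0.14 and -0.10 (days 1, 2 and 5). Thinned shares were 33.6%, 31.0%, 26.0% and 25.4% (56.1%, 71.3%, 66.7% and 63.9% unthinned).

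**Figure D1:**
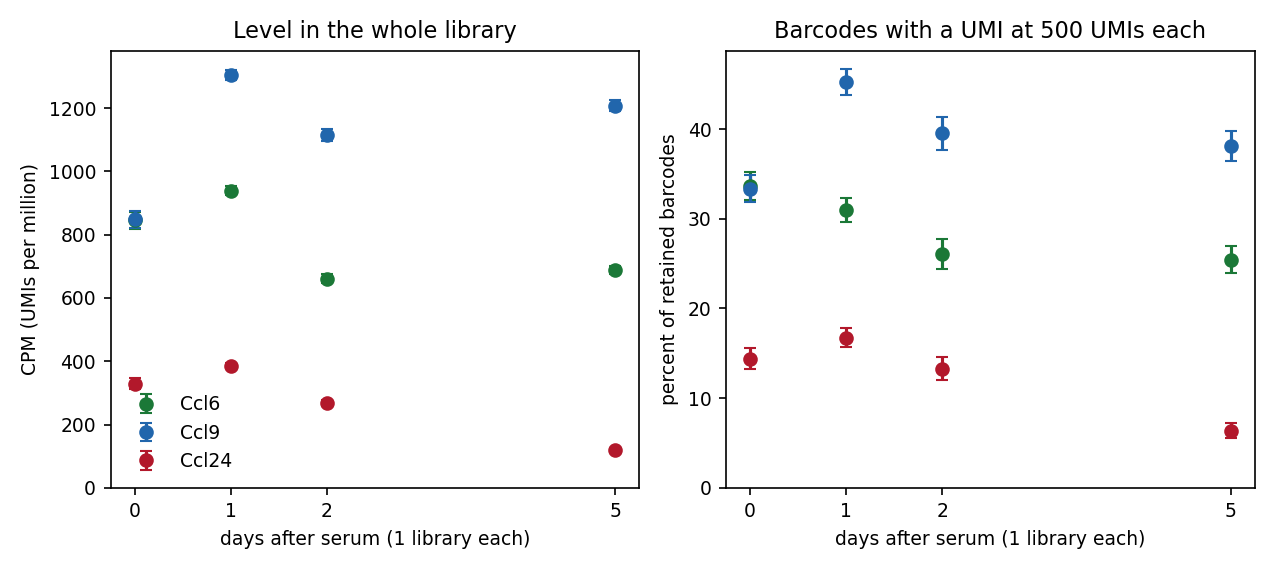
Left, CPM of Ccl6, Ccl9 and Ccl24 in all retained barcodes of each library, by days after serum. Right, percent of barcodes with at least 1 UMI after thinning each to 500 UMIs. Points are single libraries and bars are 95% counting intervals. Ccl24 is lowest at day 5 (119 CPM, 6.37% of barcodes) and Ccl9 is lowest at day 0 (848 CPM).

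The balance between the genes therefore differed between the libraries. Ccl6 and Ccl9 UMIs were about equal in number at day 0, with 1.004 (0.959 to 1.05) Ccl9 UMIs per Ccl6 UMI, against 1.39 (1.36 to 1.42), 1.69 (1.64 to 1.74) and 1.76 (1.71 to 1.80) at days 1, 2 and 5. Ccl9 UMIs per Ccl24 UMI were 2.58, 3.37, 4.18 and 10.2 on the same days. These are counts of 3' ends with no length scaling, so only their shift between libraries is described.

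Across barcodes, correlations among the 3 genes were weaker in the shallow day 0 library than in the others. The Pearson correlation of ln(1 + counts per 10000) of Ccl6 with Ccl9 across the barcodes of a library was 0.085 at day 0 and 0.33, 0.39 and 0.38 at days 1, 2 and 5. That of Ccl6 with Ccl24 was 0.082, 0.33, 0.30 and 0.12, and that of Ccl9 with Ccl24 was 0.071, 0.28, 0.27 and 0.13. Correlation was thus not particular to the neighbours Ccl6 and Ccl9, though at day 5 theirs was the highest. At day 5, 49.5% (46.0 to 52.9%) of thinned barcodes with a Ccl6 UMI held a Ccl9 UMI, against 34.3% (32.4 to 36.2%) of those without (92.2% and 74.9% unthinned). For Ccl24 the same day 5 shares were 8.51% (6.69 to 10.6%) and 5.64% (4.75 to 6.63%). Barcodes of a library share depth and free RNA, so these are descriptions.

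The genes were then compared between barcodes with and without a UMI of 6 markers: Cd163, a scavenger receptor of tissue macrophages; Aqp1, a water channel; Sparc, a matrix glycoprotein high in lining macrophages of the joint; H2-Aa, an MHC class II chain of antigen-presenting cells; Plac8, a gene of blood monocytes; and Spp1, osteopontin, a gene of wound-type macrophages. The sets overlap, and 64.8 to 68.9% of barcodes of a library held at least 2 of the markers. In 24 comparisons (6 markers in 4 libraries), Ccl24 was at least 2-fold higher in positive barcodes in 4 and at least 2-fold lower in 7. Ccl6 was so in 1 and 2, and Ccl9 in none. Because the sets overlap, barcodes with exactly 1 of the markers were also compared with barcodes that had none, which are few (165, 71 and 103 at days 1, 2 and 5). In that comparison Ccl9 was at least 2-fold lower in 3 sets of days 1, 2 and 5 and Ccl24 in 11 of 18. These small sets differed in many genes, with 5.0 to 36.1% of all genes (median 13.75%) at least 2-fold lower and 6.65 to 25.7% higher, so the Ccl9 count is near the background share. Of the 54 ratios of days 1, 2 and 5, 42 kept their direction in this comparison. Only some of the values that it changed are given with each marker, so a ratio given without it is not thereby stable. Over the 24 comparisons of positive with negative barcodes, 0.244 to 21.1% of genes (median 1.89%) were at least 2-fold higher and 0.271 to 30.8% lower.

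**Figure D2:**
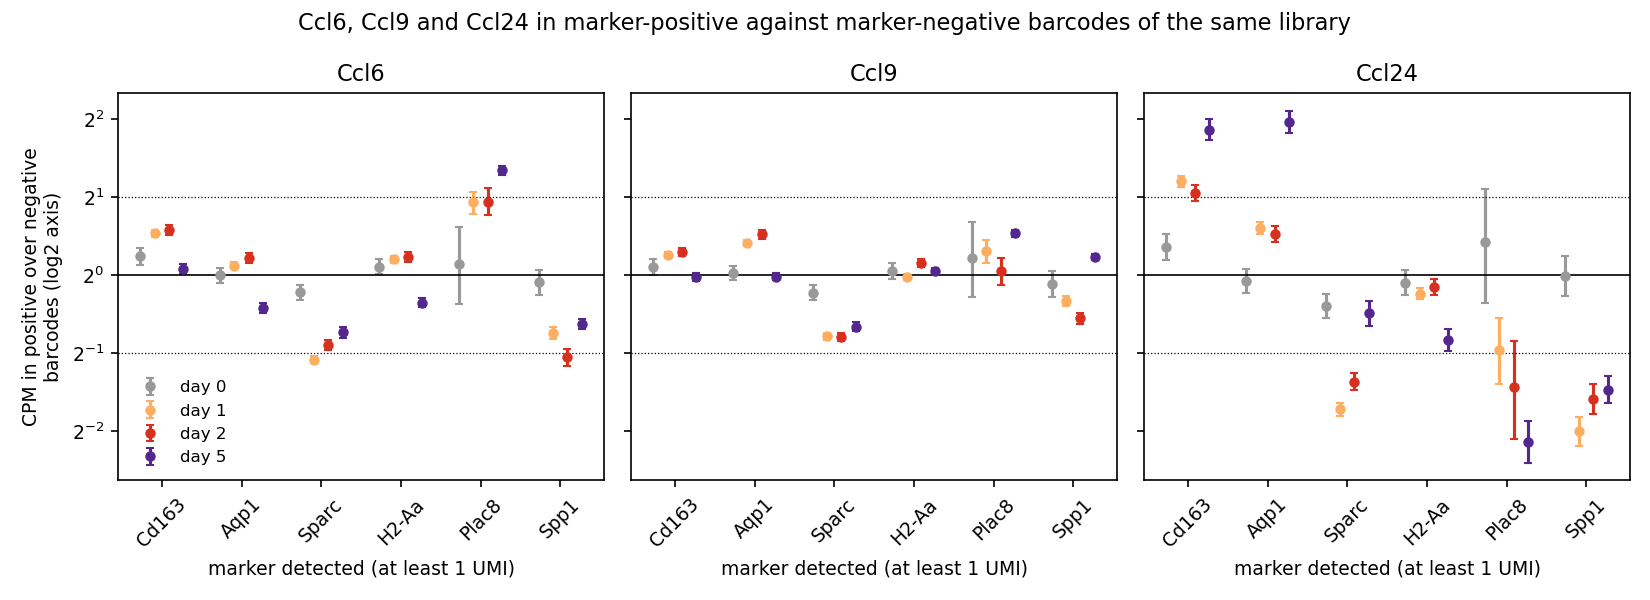
CPM in marker-positive over marker-negative barcodes of the same library, on a log2 axis, for Ccl6, Ccl9 and Ccl24 and 6 markers. Points are single libraries coloured by day, bars are 95% counting intervals and dotted lines mark 2-fold. Ccl24 spreads from 4.39-fold lower (Plac8, day 5) to 3.88-fold higher (Aqp1, day 5), while every Ccl9 point lies within the dotted lines.

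Ccl24 was higher in Cd163-positive barcodes on each day after serum. At day 1 it stood at 555 CPM (539 to 571) in positive and 241 CPM in negative barcodes, a ratio whose interval ran from 2.19 to 2.42. At day 2 the levels were 378 and 183 CPM, a ratio of 2.06 (1.92 to 2.21), and at day 5 they were 265 and 73.0 CPM, a ratio of 3.63 (3.31 to 3.99). Few genes reached 2-fold in these comparisons: 0.244%, 0.383% and 2.59% of genes at days 1, 2 and 5. Ccl24 was chosen with earlier results of these data known, so these shares are no support for its relation to Cd163. At day 5 Cd163-positive barcodes were 24.4% of the library and held 53.2% of the Ccl24 UMIs. Their median depth was 3930 UMIs against 3883 in the rest, and the thinned shares were 12.7% against 4.33%. On that day the fibroblast list (7 of 7 genes listed) summed to 23.1 CPM in Cd163-positive and 127 in negative barcodes and the erythroid list (4 of 4) to 5.64 and 210.0, and their part in the difference was not tested.

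Aqp1 marked Ccl24 most at day 5. The ratio was 1.51 (1.44–1.59) on day 1, 1.44 (1.33–1.55) on day 2 and 3.88 (3.52–4.28) on day 5, where Aqp1-positive barcodes held 239 CPM and negative ones 61.7 CPM, beside 5.09% of genes at least 2-fold higher. The day 1 direction turned in barcodes with Aqp1 alone, at 483 CPM against 702 with no marker, a ratio of 0.688 (0.602 to 0.788). With the marker called after thinning to 500 UMIs the day 5 ratio was 2.34. Splitting barcodes by both markers gave graded levels at day 5: 327 CPM (302 to 354) with Cd163 and Aqp1, 197 (176 to 219) with Cd163 alone, 184 (168 to 200) with Aqp1 alone and 34.6 (30.8 to 38.9) with neither. The 1837 barcodes with neither marker were more than those of any other combination. At day 1 the same 4 levels were 572, 519, 309 and 151 CPM, a smaller step for Aqp1 among Cd163-positive barcodes.

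Ccl24 was lower at day 5 than at day 1 both with and without these markers. In Cd163-positive barcodes the day 5 level was 0.478 (0.445 to 0.513) of day 1 and in Cd163-negative barcodes it was 0.302, and with Aqp1 the values were 0.541 (0.507 to 0.577) and 0.211. Fewer barcodes also carried the markers at day 5: 24.4% against 45.8% for Cd163 and 32.1% against 60.9% for Aqp1.

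**Figure D3:**
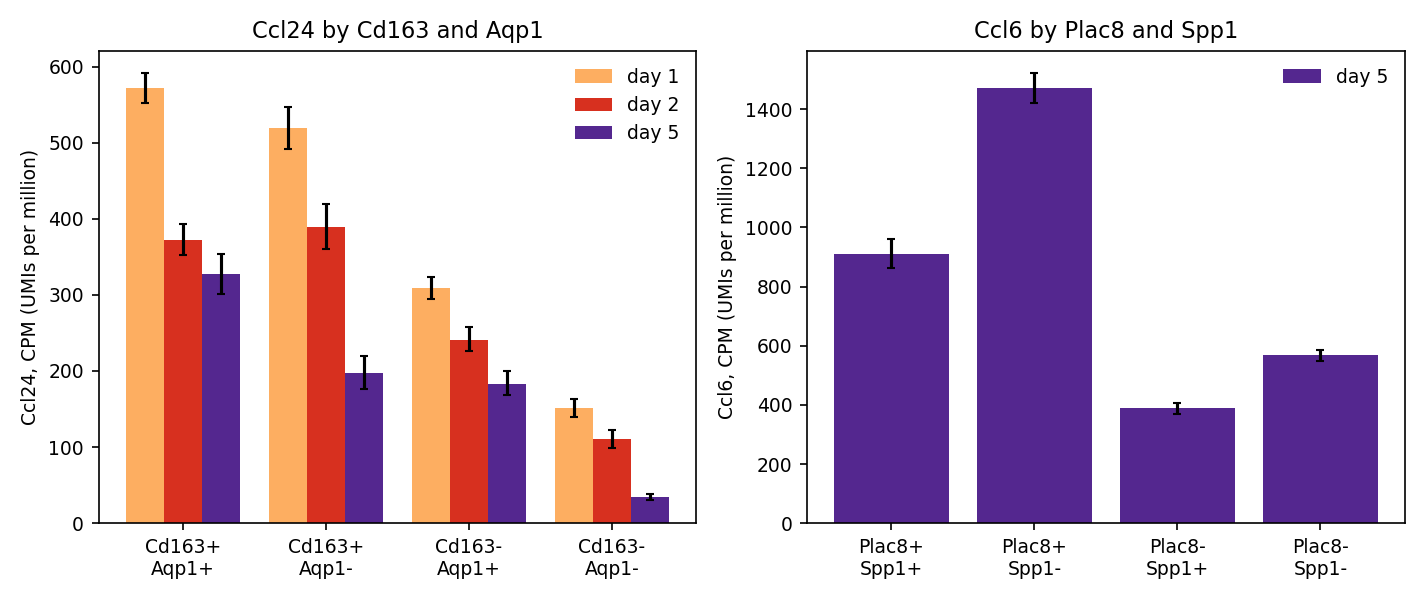
Left, Ccl24 level in CPM in barcodes split by Cd163 and Aqp1 at days 1, 2 and 5. Right, Ccl6 level at day 5 in barcodes split by Plac8 and Spp1. Bars are sums over the barcodes of 1 library, with 95% counting intervals. At day 5 Ccl24 runs from 327 CPM with both markers to 34.6 CPM with neither, and Ccl6 is highest with Plac8 and without Spp1 (1471 CPM).

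Ccl24 was low in Sparc-, Spp1- and Plac8-positive barcodes. In Sparc-positive barcodes it stood at 170 CPM at day 1 against 560.0 in negative ones, 3.30-fold (3.11 to 3.497) lower, and at 153 against 395 CPM at day 2, 2.58-fold (2.39 to 2.78) lower, where 2.62% and 2.36% of genes were at least 2-fold lower. At day 5 the Sparc difference was smaller, 92.6 against 129.9 CPM. Sparc-positive barcodes also held more of the fibroblast list, 242 against 28.9 CPM at day 1 and 278 against 27.0 at day 5, and its part was not tested. In Spp1-positive barcodes Ccl24 was 4.00-fold (3.52 to 4.55), 3.004-fold (2.63 to 3.45) and 2.77-fold (2.46 to 3.12) lower at days 1, 2 and 5, where 1.23%, 1.15% and 1.34% of genes were so. Sparc alone gave a larger day 1 difference, 91.2 against 702 CPM with no marker. For H2-Aa the ratios were 0.845, 0.897 and 0.563, but barcodes with H2-Aa alone were 4.38-fold (3.56 to 5.41), 2.68-fold (1.87 to 3.87) and 3.19-fold (2.13 to 4.79) lower than those with no marker, where 15.3%, 13.9% and 10.6% of genes were so.

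In Plac8-positive barcodes of day 5 Ccl24 stood at 33.6 CPM (28.0 to 40.0) against 148 CPM in negative ones, 4.39-fold (3.66 to 5.30) lower. At day 2 it was 2.71-fold (1.80 to 4.28) lower over 52 positive barcodes. Plac8 sets differed in many genes, and 11.3% and 15.8% of genes were at least 2-fold lower at days 5 and 2. Against barcodes with none of the 6 markers (103 at day 5, 129.0 CPM), the 214 barcodes with Plac8 alone held 15.9 CPM (8.48 to 27.2), 8.10-fold lower, where 23.2% of genes were at least 2-fold lower. Sets that could show the level of free RNA were small. The 12 barcodes marked by at least 3 fibroblast genes such as Col1a1 held Ccl24 at 44.1 CPM (5.34 to 159). The 13 marked as mature dendritic cells by at least 2 of Ccr7, Fscn1, Ccl22 and Cacnb3 held 69.0 CPM (18.8 to 177). The fibroblast-marked barcodes (median 3368 UMIs, against 3898 in the rest) held a Ccl6, Ccl9 and Ccl24 UMI in 8.33%, 25.0% and 16.7% of cases unthinned, and in 0, 0 and 1 barcode after thinning, where 0 of 12 allows a share of up to 25.0%. They are too few to place the Plac8 level above or below background. Both sets were chosen after values were seen, since the lymphocyte-marked barcodes planned as background numbered 9 at day 0 and 0 on other days.

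Ccl6 had the opposite relation to Plac8. At day 5 it stood at 1254 CPM (1219 to 1290.2) in Plac8-positive and 495 CPM in negative barcodes, a ratio of 2.53 (2.43 to 2.63) where 4.53% of genes were at least 2-fold higher. The 25.5% of barcodes with Plac8 held 46.2% of the Ccl6 UMIs of that library. At days 1 and 2 the ratios were 1.90 (1.72 to 2.097) over 59 positive barcodes and 1.92 (1.70 to 2.16) over 52. The neutrophil list (9 genes, of which 4 were listed at day 5) summed to 89.8 CPM in Plac8-positive and 20.9 CPM in negative barcodes of day 5, with Ly6g and Retnlg not listed, and its part in the Ccl6 difference was not tested.

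Among Plac8-positive barcodes of day 5, Ccl6 was lower where a second marker was present. It stood at 1471 CPM (1422 to 1521) without Spp1 and 912 (863 to 962) with it, and at 1629 (1567 to 1694) without H2-Aa and 985 (944 to 1027) with it. Among Plac8-negative barcodes it stood at 567 CPM without Spp1 and 388 with it. The direction turned in barcodes with Spp1 and no other marker, which held 641 CPM against 538 with none of the 6, a ratio of 1.19 (1.01 to 1.41).

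Ccl6 was lower in Sparc-positive barcodes, at 578 against 1226 CPM at day 1, 2.12-fold (2.05 to 2.19) lower, and at ratios of 0.538 at day 2 and 0.600 at day 5. In Spp1-positive barcodes it was 2.07-fold (1.93 to 2.24) lower at day 2 and had ratios of 0.599 at day 1 and 0.648 at day 5. Cd163 marked higher Ccl6 at days 1 and 2, with ratios of 1.45 and 1.48, and the day 5 ratio was 1.05 (1.01 to 1.10). The day 5 value depended on the set compared: 35 barcodes with Cd163 alone held 1224 CPM against 538 with no marker, a ratio of 2.27 (1.81 to 2.85) beside 25.7% of genes at least 2-fold higher, and it was 0.970 without the 5% of barcodes with most UMIs.

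Ccl9 ratios had the narrowest range of the 3 between marker-positive and negative barcodes. They lay between 0.577 (Sparc, day 2) and 1.45 (Plac8, day 5), and Sparc-positive barcodes had the lowest ratio on each day, 0.855, 0.579, 0.577 and 0.632. With a single marker against none, Ccl9 was 2.03-fold (1.84 to 2.24) and 2.23-fold (1.94 to 2.55) lower for Sparc at days 1 and 2, and 2.12-fold (1.53 to 2.99) lower for Spp1 at day 2 over 18 barcodes, where 8.1%, 10.8% and 23.3% of genes were so. Plac8-positive barcodes of day 5 held 1570.2 CPM (1531 to 1611) against 1084 in negative ones. For Cd163 and Aqp1 at day 5 the ratios were 0.979 (0.946 to 1.01) and 0.983 (0.952 to 1.01), where Ccl24 had its largest ones.

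The barcodes with the most Ccl9 led to a set the markers had not drawn out, described here after values were seen. Barcodes with at least 3 of Acp5, Ctsk, Mmp9, Atp6v0d2, Ocstamp and Dcstamp, genes of bone-resorbing osteoclasts, are called osteoclast-marked. At day 5 all 20 barcodes with most Ccl9 UMIs were osteoclast-marked, with 70 to 241 Ccl9 UMIs each, against 2, 2 and 3 of 20 at days 0, 1 and 2. These barcodes were deep, with a median of 14518 UMIs over the 91 of day 5 against 3850.0 in the rest, so levels are given as CPM.

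Osteoclast-marked barcodes of day 5 held Ccl9 at 2335 CPM (2255 to 2418) against 1093 (1075 to 1110.3) in the rest, a ratio of 2.14 (2.06 to 2.22). High Ccl9 was the reason this set was looked at, so the ratio describes the set and is no separate support. The share of all genes past 2-fold between these barcodes and the rest was not computed. The marked barcodes were 2.81% of the barcodes and held 17.8% of the Ccl9 UMIs, a share that also rises with their greater depth. Ccl6 and Ccl24 were nearly missing from them, at 37.9 CPM (28.3 to 49.7) against 753 and at 4.38 CPM (1.61 to 9.53) against 130.4. At day 0, where 143 barcodes met the rule, Ccl9 stood at 1421 CPM (1247 to 1612) against 825, Ccl6 at 551 against 857 and Ccl24 at 231 against 333. The day 0 set was unlike the day 5 one in depth, with a median of 1076 UMIs against 1057 in the rest. It also differed in Csf1r, at 923 against 914 CPM at day 0 and 318 against 726 at day 5. The sets of days 1 and 2 had 11 and 9 barcodes, with Ccl9 at 1475 CPM (1256 to 1720) and 1932 CPM (1678 to 2213). Without osteoclast-marked barcodes the day 5 over day 0 ratio of Ccl9 was 1.32 in place of 1.42.

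**Figure D4:**
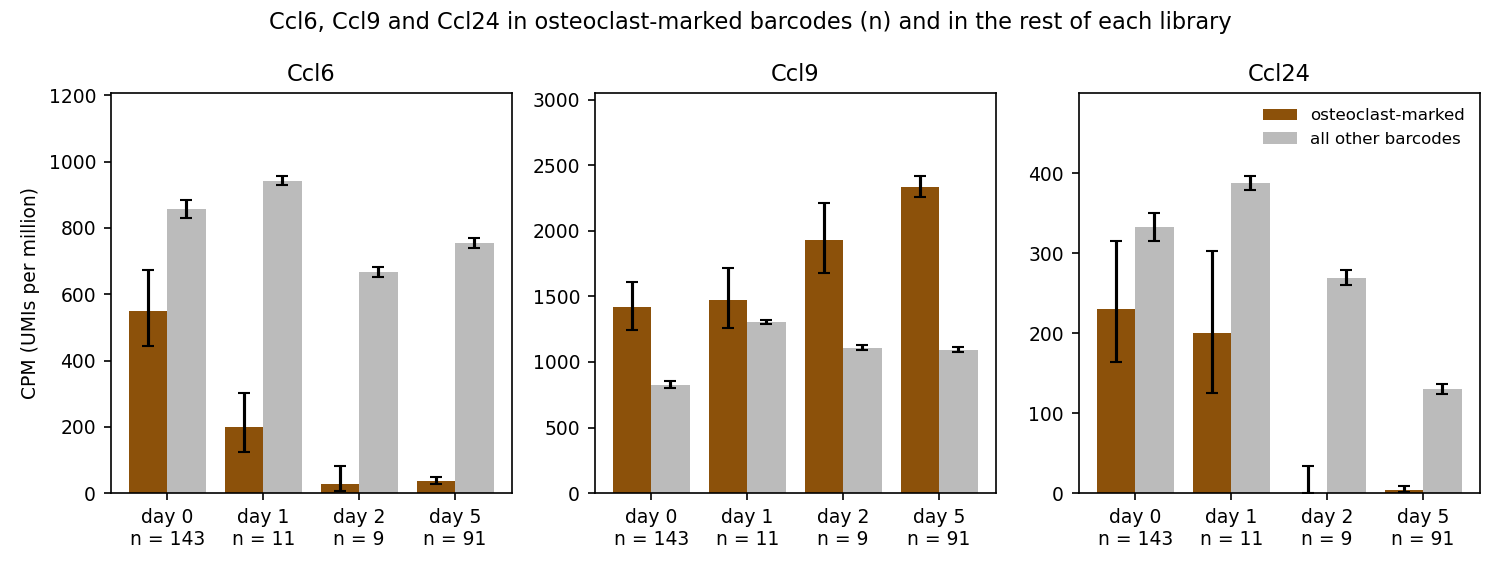
CPM of Ccl6, Ccl9 and Ccl24 in osteoclast-marked barcodes (number under each day) and in all other barcodes of the same library. Bars are sums over barcodes with 95% counting intervals, and each panel has its own axis from 0. At day 5 Ccl9 is 2335 CPM in marked barcodes and 1093 CPM in the rest, while Ccl6 is 37.9 against 753.

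At day 0 none of the 3 genes reached 2-fold for any marker. Ccl24 had a ratio of 1.28 (1.14 to 1.43) for Cd163, 1.34 (0.778 to 2.15) for Plac8 over 32 positive barcodes and 0.757 (0.681 to 0.841) for Sparc, and Ccl6 and Ccl9 lay between 0.855 and 1.18. The marker sets themselves were less distinct there: H2-Aa in Sparc-positive over Sparc-negative barcodes was 0.734 at day 0, against 0.263, 0.283 and 0.180 on days 1, 2 and 5. The smaller day 0 ratios and the lower depth of that library go together, and their relation was not tested.

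The receptors of these chemokines were measured in the same cells. Ccr1, the receptor of Ccl6 and Ccl9, stood at 148, 188, 218 and 233 CPM at days 0, 1, 2 and 5. At day 5 it was higher in Plac8-positive barcodes, at 368 against 187 CPM, a ratio of 1.97 (1.84 to 2.11), and so on the same side as Ccl6. At day 1 it was higher in Sparc-positive barcodes, at a ratio of 2.03 (1.89 to 2.17), where Ccl6 and Ccl9 were lower. Ccr3, the receptor of Ccl24, stood at 1.84, 0.544, 0.576 and 2.08 CPM. The eosinophil list (8 genes) summed to 21.0 to 36.1 CPM per library, nearly all Ear2, and its defining gene Siglecf was listed at day 5 alone, at 0.336 CPM.

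Ccr2, the receptor of inflammatory monocytes, was 3.88-fold (3.51 to 4.31) higher at day 5 than at day 0, at 365 CPM, where 6.43% of all genes were at least 2-fold higher (2.57% and 2.77% at days 1 and 2). Ccrl2, a non-signalling chemerin receptor, was 2.73-fold lower at day 1. The median log2 ratio over all genes tested was 0.15, 0.14 and 0.11 at days 1, 2 and 5.

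The other CC chemokines were mostly lower after day 0, on the days when Ccl9 was higher. Of the 18 genes chosen, 13 were listed in at least 1 library and 8 were measured, and 8, 7 and 7 of them were at least 2-fold lower at days 1, 2 and 5, where 2.41%, 2.98% and 3.34% of all genes were so. None was at least 2-fold higher. The genes short of 2-fold, named after values were seen, were Ccl7 at day 2 (0.518 of day 0) and Ccl17, a dendritic cell chemokine, at day 5 (1.32). The median log2 ratio of the 8 was -1.66, -1.25 and -1.61. Ccl5, a T cell attractant, was 20.2-fold (13.1 to 32.1) lower at day 1, from 28.5 CPM. It was found in few barcodes, 1.94% at day 0 and 0.259% at day 1 unthinned. The lymphocyte list summed to 17.3 CPM at day 0 and 2.45 at day 1, and its part in the Ccl5 difference was not tested. The monocyte attractants Ccl12, Ccl7 and Ccl8 were 5.16-fold lower at day 1, 3.78-fold lower at day 5 and 3.69-fold lower at day 5. Each comparison uses the same day 0 library, so the days are not independent.

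Of 15 genes of interleukin-4 and interleukin-13 signalling, the pathway known to raise Ccl24, 8 were measured. Il2rg, the common gamma chain, was at least 2-fold higher, at 2.15 at day 2 and 5.78 (4.19 to 8.20) at day 5. Its day 0 level was low, 8.97 CPM from 39 UMIs, in 1.05% of barcodes unthinned. None of the 8 was at least 2-fold lower at days 1, 2 or 5. With 2.41 to 3.34% of all genes at least 2-fold lower and 2.57 to 6.43% higher, these counts are near the background share and are no result about the pathway. Il4 and Il13 were not listed at day 5. The kinases Jak1 and Tyk2 had ratios of 1.61 each at day 1 and 1.42 and 1.50 at day 5, and Klf4, a transcription factor of the pathway, was 0.724 of day 0 at day 5. The median log2 ratio of the 8 was 0.42, 0.32 and 0.27.

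The genes whose pattern across barcodes was most like each chemokine were ranked by the mean over 4 libraries of the within-library correlation, among 2719 genes. For Ccl24 they were Pf4 (0.43), a platelet factor that tissue macrophages also make, Selenop (0.34), a selenium carrier, F13a1 (0.33), coagulation factor XIII A, Mrc1 (0.31), the mannose receptor, and Igfbp4 (0.26). At day 5 alone the Pf4 correlation was 0.52 and at day 0 it was 0.19. Pf4 itself had 6939.8 CPM in the day 0 library and 2141 CPM in that of day 5, so like Ccl24 it was lowest in the last library.

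Ccl6 and Ccl9 shared the gene most like them, Ifitm3, an interferon-induced membrane protein, with mean correlations of 0.32 and 0.23. For Ccl6 it was followed by Retnla (0.26), a gene of alternatively activated macrophages, Ifitm2 and F13a1 (0.18 each) and Wfdc17 (0.18). For Ccl9 it was followed by Pf4 (0.17), F13a1 (0.16), Ifitm2 (0.15) and Dok2 (0.14), a signalling adaptor. Ifitm3 differed in level from Ccl6, with 312 CPM in the day 0 library and 1610.4 CPM in that of day 5. All correlations at day 0 were weak, at most 0.19 for the genes named here, and barcodes share depth and free RNA.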

How the data were processed

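Single-cell libraries of sorted synovial myeloid cells were read from tables deposited by the authors, which give whole, unscaled UMI counts by gene and barcode. The submitters' processing notes name mm10, R 3.5.2, Cell Ranger 2.1.0 and Seurat 2.3, and the step that each served is not stated there. A table leaves out genes found in fewer than 5 of its barcodes, so the value of a gene it does not list is unknown. Totals over retained barcodes were 4347517, 18373038, 12159063 and 14901661 UMIs at days 0, 1, 2 and 5.

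UMIs were summed over barcodes and divided by their total (CPM). Levels carry exact Poisson, ratios exact conditional Poisson and shares exact Clopper-Pearson 95% intervals, which cover counting error only. A gene counted as measured with at least 10 CPM in 1 of a pair of libraries or sets. No doublet caller was run, and an alternative left out the 5% of barcodes with most UMIs. With 1 library per day no test was made. In a simulation of 7012 genes for days 5 and 0, 100% of 200 genes changed 4-fold passed 2-fold, and 95.7% of intervals held the true ratio. The simulated counts were drawn as Poisson, the model of the intervals, so this checks the calculation alone. It held no spread between cells, mice or libraries and cannot show how the intervals fare with it.

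The members and lists were chosen with earlier results of these data known. All 3 chemokines were named, with Ccr1, Ccr2 and Ccr3, up to 4 measured genes per list with the largest ratio to day 0, and the 5 genes most correlated with each chemokine, among genes with at least 50 CPM in a library other than predicted, sex-linked, haemoglobin, ribosomal and mitochondrial ones. The marker lists for other cells were neutrophil, eosinophil, mast cell or basophil, lymphocyte, fibroblast, endothelial and erythroid. A planned comparison of protein sequences was replaced by coding sequences. The counts and median of the chemokine receptor list are not reported here. Software was Biopython 1.88, matplotlib 3.10.9, SciPy 1.17.1, NumPy 2.4.6, pandas 2.3.3 and Python 3.11.15.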

Additional observations from a re-analysis of the deposited data

Results flagged for a closer look

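Some marker relations lay on opposite sides of 1 in different libraries, and none of these differences was tested. For Ccl6 in Aqp1-positive over Aqp1-negative barcodes, the ratio was 1.16 at day 2 and 0.748 at day 5, and the day 2 value was 0.937 with Aqp1 alone against no marker. For Ccl6 and H2-Aa it was 1.18 at day 2 and 0.781 at day 5. For Ccl9 and Spp1 it was 0.681 at day 2 and 1.17 at day 5, and the day 5 value was 0.936 without the 5% of barcodes with most UMIs. At day 5, 19 of the 20 barcodes with most Ccl9 UMIs were Spp1-positive and all 20 were osteoclast-marked. These 20 were deep, with a median of 26309.5 UMIs against 3897 in the library. Depth makes any marker easier to detect, and its part in this overlap was not tested.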

How the results depend on the processing

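All 14 marker ratios past 2-fold at days 1, 2 and 5 kept their direction under each alternative run, and 13 remained past 2-fold when barcodes with exactly 1 marker were set against barcodes with none (14 under the others). The exception was Ccl24 with Cd163 at day 1, at 1.72, while day 0 reached 2.02 in that setting. Of all 54 ratios on these days, 42 to 54 kept their direction. Ccl6 comparisons at least 2-fold higher numbered 3, not 1, with at least 2 UMIs of the marker, with markers called after thinning, with exactly 1 marker, and without the 5% of barcodes with most UMIs. The higher counts for Ccl24 (4) and Ccl9 (0) were equal under each alternative run, though with exactly 1 marker the Ccl24 comparisons were not the same ones. At days 1, 2 and 5 the comparisons at least 2-fold lower with exactly 1 marker numbered 3, not 0, for Ccl9 and 11, not 7, for Ccl24, and under the other alternatives 0 for Ccl9, 7 to 9 for Ccl24 and 2 to 3 for Ccl6. None used a test, and day 0 was left out of these because 1 barcode there had Plac8 alone.

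Ratios to day 0 are given for days 1, 2 and 5 in turn. With the mean of each barcode's CPM they were 1.28, 0.927 and 0.958 for Ccl6, 1.62, 1.37 and 1.35 for Ccl9, and 1.47, 1.06 and 0.462 for Ccl24. With median-ratio scaling they were 0.986, 0.708 and 0.757, then 1.37, 1.19 and 1.32, then 1.04, 0.735 and 0.336. Without the 5% of barcodes with most UMIs they were 1.18, 0.837 and 0.927 for Ccl6 and 1.25, 0.898 and 0.404 for Ccl24, and 1.30 for Ccl9 at day 5. Against day 1, days 2 and 5 were 0.704 and 0.733 for Ccl6, 0.856 and 0.926 for Ccl9, and 0.691 and 0.307 for Ccl24. Without osteoclast-marked barcodes, a choice made after seeing the data, the day 5 ratios were 0.879, 1.32 and 0.392. The cause of these shifts was not tested. Minimums of 200 or 1000 genes, a 5% mitochondrial limit and leaving out fibroblast-marked barcodes moved no ratio beyond its counting interval, though only 96 barcodes of day 0 had 1000 genes.

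No paired analysis was possible because each day has 1 library and no result comes from a test. The low depth of the day 0 library limits the shares of barcodes and the marker sets there, and the spread between mice is not known.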
